A study of Mus musculus with 12 samples.

Results

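The lysyl oxidase family is made up of Lox, Loxl1, Loxl2, Loxl3 and Loxl4, and its members were chosen by symbol from the count table of C2C12 myotubes. All 5 genes were among the 55487 listed genes and among the 14175 that were expressed highly enough to be tested. C2C12 cells are immortal mouse myoblasts, which stop dividing and fuse to myotubes once serum is lowered, and STEM is what human embryonic stem cells, driven part of the way to differentiation, secrete into their medium, with the cells removed. Both groups were differentiated for 5 days in medium with 2% horse serum and were then kept for 24 h with either 4% horse serum (libraries 1 to 6) or 4% STEM (libraries 7 to 12). STEM took the place of horse serum, so the addition of STEM and the removal of horse serum cannot be told apart, and every library comes from the same cell line. The labels do not say whether the 6 libraries of a group were separate cultures, so p-values measure the spread between these libraries, which may be technical.

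Lysyl oxidases are secreted, copper-dependent enzymes that oxidize lysine side chains of collagen and elastin, and the aldehydes they make join neighbouring chains into covalent crosslinks. Lox and Loxl1 are made with a propeptide that is cut off outside the cell by Bmp1 and related proteases. Loxl2, Loxl3 and Loxl4 carry scavenger receptor cysteine-rich domains in its place, and Loxl2 is known for crosslinking the collagen IV of basement membranes. In muscle these enzymes act on the connective tissue around the fibres, and their excess is a feature of stiff, fibrotic tissue.

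Of the 5 lysyl oxidases, 4 were differentially expressed, against 36.4% of all tested genes. Of these, 2 were higher, against 18.9% of all tested genes, and 2 lower, against 17.4%. DESeq2 also called 4 (37.7% of all genes, 19.2% higher and 18.4% lower), and so did edgeR without horse serum library 6 (50.8%, 26.3% higher and 24.5% lower). With no filter on low counts 2 were called (Loxl2 and Loxl3 were lost), beside 4648 genes over the whole table, against 5155 with the filter. With total counts as the only scaling 3 were called (Loxl3 was lost), beside 4900 genes over the whole table. The same 3 were called in 7 of the 12 fits that left out 1 library, beside 4459 to 4801 genes over the whole table. Loxl4 had the largest rise and Loxl1 a smaller one, Loxl2 had the largest fall, Loxl3 a small fall that did not hold in every fit, and Lox did not pass the test. No value of one medium fell within the range of the other for 3 of the 5 genes (Loxl1, Loxl3 and Loxl4), against 17.2% of all tested genes, and for 4 of the 5 without library 6 (adding Loxl2), against 33.4%. With total counts as the only scaling the groups overlapped for Loxl3 too, which left 2. The share of all tested genes without overlap was not computed under that scaling.

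The libraries held between 13285472 and 24536264 counts. Horse serum library 6 stood apart from the other 11 libraries on principal component 2 of the log2 CPM (at -53.3, with the others between 0.22 and 11.8). On component 1 it lay at 11.2, nearer to the STEM libraries (15.5 to 28.6) than to the other horse serum libraries (-35.5 to -24.6). All 16 myotube markers examined were expressed. Their summed level was 14802 CPM in horse serum library 6, between 23836 and 26741 CPM in the other horse serum libraries and between 21210 and 27910 CPM in STEM. The sum does not stand for each marker. With STEM 2 of the 16 were called higher (Myh4 and Mymk) and 2 lower (Myh8 and Myog), against 18.9% and 17.4% of all tested genes. Markers of unfused, dividing myoblasts summed to 1504 CPM in library 6, to between 1027 and 1287 CPM in the other horse serum libraries and to between 1002 and 1103 CPM in STEM. Of these 8 markers 5 were lower with STEM (Myf5, Vcam1, Mki67, Top2a and Cdk1), against 17.4% of all tested genes. Cdh15 was the 1 that was higher (against 18.9%), at 440 to 507 CPM in STEM, so the sum does not stand for the 8 together. The 8 did not move together in library 6. Cdh15 (459 CPM), Mki67 (322 CPM) and Ccnb1 (114 CPM) were at their highest of the horse serum group there. Pax7 (26.0 CPM), Myf5 (15.9 CPM) and Vcam1 (93.8 CPM) were at their lowest of that group, and Top2a and Cdk1 lay within it. Of 7 macrophage markers Ptprc, Adgre1 and Lyz2 had at most 3 counts in any library, and the 7 summed to at most 6.00 CPM. The 5 fibroblast markers summed to 706 to 777 CPM in horse serum and to 526 to 589 CPM in STEM without overlap. Most of this sum was Gsn alone, at 667 to 727 CPM in horse serum and 489 to 551 CPM in STEM. Gsn and Ly6a were lower with STEM, Dpt was higher, Pdgfra was not called and Thy1 had at most 1 count. The sum thus does not stand for the 5 markers together. The part of these markers in the lysyl oxidase and matrix values was not tested. In RNA from a whole well, a smaller share of 1 kind of cell and less RNA per cell cannot be told apart.

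Loxl4 (ENSMUSG00000025185, chromosome 19, 42593982 to 42612813, minus strand, GRCm38) was the 1 member of the 5 that matched the RefSeq promoter table by symbol, and its promoter is shown as that of the member with the largest rise. The 243 bases before the annotated first exon are given 5′ to 3′ on the minus strand of GRCm38.p6, chr19:42612814-42613056, with matches to the GC box GGGCGG in capitals.
Loxl4 promoter: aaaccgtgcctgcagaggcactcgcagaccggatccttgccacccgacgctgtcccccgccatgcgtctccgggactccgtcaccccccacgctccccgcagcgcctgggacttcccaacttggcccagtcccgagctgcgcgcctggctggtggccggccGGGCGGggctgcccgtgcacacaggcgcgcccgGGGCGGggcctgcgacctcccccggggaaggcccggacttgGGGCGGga
The window was 75.7% G and C. It held 3 matches to GGGCGG on either strand, a motif present in 31.8% of 32851 RefSeq promoter windows of the same length. It held 1 match to CAGAC, the SMAD box, which 41.3% of the windows held. No match was found to the hypoxia response core ACGTG (16.1% of windows), to TATAAA (12.2%) or to the E-box CAGCTG (12.6%). These matches describe the letters of the window and do not show binding.

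Loxl4 was expressed at 24.4 to 26.5 CPM (counts relative to the total of the library, after TMM scaling) in the 6 horse serum libraries, with a median of 25.2 CPM, and at 37.8 to 45.3 CPM in the 6 STEM libraries, with a median of 43.1 CPM. Every STEM library lay above every horse serum library, and library 6 (26.1 CPM) lay within the other horse serum libraries. The mean rose from 25.4 ± 0.77 CPM to 42.1 ± 2.83 CPM (SD, n = 6 each), a 1.66-fold rise. In edgeR's quasi-likelihood test this was 0.73 on the log2 scale (SE, the standard error, 0.054), with an adjusted p = 2.33e-07 (Benjamini-Hochberg, over all tested genes). As a single value per library, log2 CPM differed by 0.73 (p = 0.00216 in a two-sided exact permutation test, the lowest value that 6 libraries against 6 can give). Within the STEM group, libraries 7 and 8 were the lowest, at 39.7 and 37.8 CPM.

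Loxl1 (ENSMUSG00000032334, chromosome 9, 58287738 to 58313186, minus strand) is a family member tied to elastic fibres. Its values ran from 177 to 204 CPM in horse serum, with a median of 189 CPM, and from 229 to 255 CPM in STEM, with a median of 240.0 CPM. The groups did not overlap, and library 6 had the highest value of the horse serum group. The mean rose from 189 ± 9.77 CPM to 241 ± 10.5 CPM (SD, n = 6 each), a 1.27-fold rise (0.35 on the log2 scale, SE 0.046, edgeR adjusted p = 4.03e-05). The exact permutation test gave p = 0.00216. Loxl1 and Loxl4 were called in all 12 fits that left out 1 library and under all 7 other settings.

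Loxl2 (ENSMUSG00000034205, chromosome 14, 69609068 to 69695834, plus strand) went the other way. It was expressed at 33.7 to 39.0 CPM in horse serum libraries 1 to 5, at 19.5 CPM in horse serum library 6, and at 14.6 to 28.6 CPM in STEM, with a median of 21.7 CPM. The groups overlapped through library 6 alone, which lay inside the range of the STEM libraries. The mean was 33.9 ± 7.37 CPM in horse serum and 21.9 ± 4.99 CPM in STEM (SD, n = 6 each), a difference of -0.62 on the log2 scale (SE 0.18, edgeR adjusted p = 0.0167). The exact permutation test of log2 CPM gave p = 0.0173 (two-sided). Without library 6 the horse serum mean was 36.7 ± 2.51 CPM (n = 5), the groups did not overlap, and the log2 fold change was -0.74 (SE 0.14, adjusted p = 0.00105). With no filter on low counts the log2 fold change was -0.63 and the call was lost (adjusted p = 0.0623).

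Loxl3 (ENSMUSG00000000693, chromosome 6, 83034173 to 83052562, plus strand) had a narrow range in each group apart from horse serum library 6. Horse serum libraries 1 to 5 lay between 80.9 and 82.6 CPM, library 6 at 100.4 CPM, and the STEM libraries between 72.7 and 79.8 CPM, with a median of 76.6 CPM. Every STEM library was below every horse serum library, though the highest STEM value and the lowest horse serum value were close. With total counts as the only scaling they overlapped, with STEM up to 79.6 and horse serum down to 78.9 CPM. The mean was 84.8 ± 7.68 CPM in horse serum and 76.4 ± 2.36 CPM in STEM (SD, n = 6 each), a difference of -0.15 on the log2 scale (SE 0.055, edgeR adjusted p = 0.0406). The exact permutation test gave p = 0.00216. Without library 6 the horse serum mean was 81.7 ± 0.77 CPM (n = 5) and the log2 fold change was -0.10 (SE 0.037, adjusted p = 0.0330). The call was lost when horse serum library 2 or 5, or any of STEM libraries 7 to 11, was left out (log2 fold change -0.16 to -0.14, adjusted p from 0.0517 to 0.0860), with total counts as the only scaling (adjusted p = 0.154) and with no filter on low counts (adjusted p = 0.0631).

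Exon sequence of Loxl3 is shared in part with Htra2, the gene of a mitochondrial protease on the opposite strand, with 535 bases in common or 11.6% of the exon length of Loxl3. Htra2 was at 77.0 CPM in library 6, at 46.0 to 51.6 CPM in the other horse serum libraries and at 54.0 to 69.9 CPM in STEM. Library 6 was thus the highest library for both genes, while the STEM libraries were above horse serum libraries 1 to 5 for Htra2 and below them for Loxl3. The libraries were made with a stranded kit, but the strand setting of the counting is not given in the sources used here, and reads over the shared bases could have been given to either gene or dropped. Their part in the values of Loxl3 was not tested.

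Lox (ENSMUSG00000024529, chromosome 18, 52516067 to 52529867, minus strand), the founding member of the family, had the most counts of the 5 genes. It was expressed at 475 to 632 CPM in horse serum, with a median of 590.2 CPM, and at 337 to 587 CPM in STEM, with a median of 541 CPM. The groups overlapped, and the lowest values were those of STEM libraries 10 (337 CPM) and 9 (447 CPM). The mean was 571 ± 56.8 CPM in horse serum and 501 ± 93.2 CPM in STEM (SD, n = 6 each), a log2 fold change of -0.19 (SE 0.12) that did not pass the test (edgeR adjusted p = 0.228). The exact permutation test gave p = 0.162 (two-sided). Without STEM library 10 the log2 fold change was -0.10 (SE 0.081, adjusted p = 0.382). Lox was called in none of the 12 fits that left out 1 library and under none of the 7 other settings, with adjusted p between 0.144 and 0.404.

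**Figure D1:**
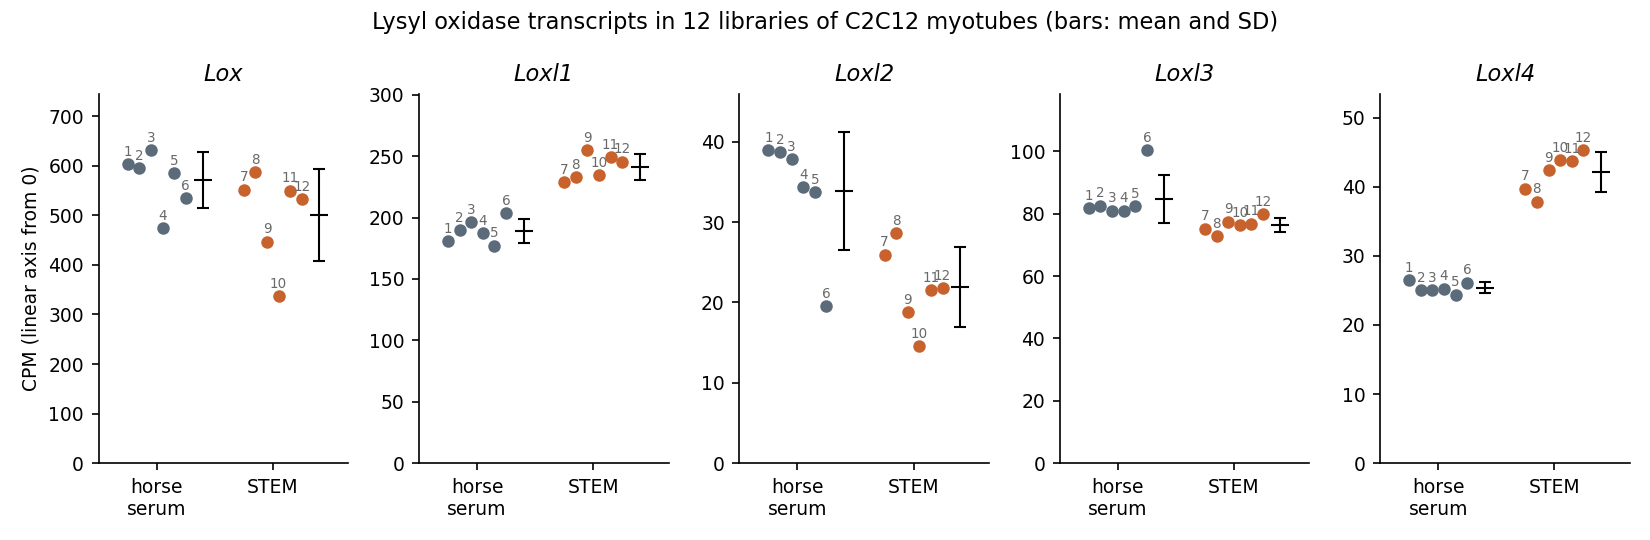
Expression of the 5 lysyl oxidases in CPM on a linear axis from 0, with 1 point per library labelled by its number, horse serum in grey, STEM in orange, and the mean with its SD in black beside each group. Every STEM library is above every horse serum library for Loxl1 and Loxl4, library 6 lies among the STEM libraries for Loxl2 and above all others for Loxl3, and library 10 is the lowest for Lox.

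The same pattern of signs was obtained with each tool. DESeq2 gave log2 fold changes of 0.72 for Loxl4, 0.34 for Loxl1, -0.63 for Loxl2, -0.16 for Loxl3 and -0.19 for Lox, and limma-voom gave 0.72, 0.35, -0.59, -0.15 and -0.21 in that order. Over all tested genes, the median moved to between -0.01 and 0.03 on the log2 scale under the other scalings, from 0.01 with TMM, and no lysyl oxidase changed sign.

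**Figure D2:**
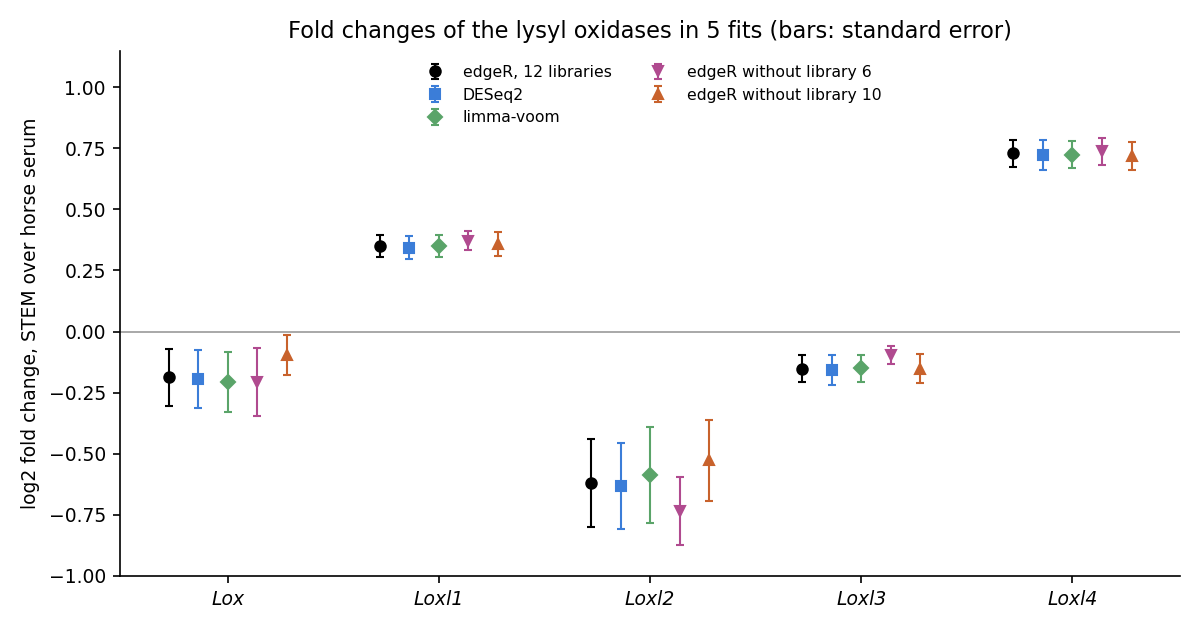
Log2 fold change of STEM over horse serum for each lysyl oxidase, with its SE as a bar, in edgeR with 12 libraries, DESeq2, limma-voom, edgeR without horse serum library 6 and edgeR without STEM library 10. Loxl4 stays near 0.73 and Loxl1 near 0.35, Loxl2 is lowest without library 6 (-0.74), and Lox is closest to 0 without library 10 (-0.10).

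Levels were compared between the genes as CPM per kilobase of exon. With horse serum the order was Lox (119 ± 11.9), Loxl1 (57.4 ± 2.96), Loxl3 (18.4 ± 1.67), Loxl2 (6.26 ± 1.36) and Loxl4 (6.03 ± 0.18 CPM per kilobase, SD, n = 6). Loxl2 and Loxl4, the last in this order, did not differ beyond their spread, since Loxl2 ran from 3.61 to 7.21 and Loxl4 from 5.79 to 6.28 CPM per kilobase. With the longest transcript as length the order of their means over the 6 libraries turned, with Loxl4 at 6.79 and Loxl2 at 6.37 CPM per kilobase. These means include library 6, where Loxl2 was at its lowest of the horse serum group (3.61 CPM per kilobase of exon). With STEM the order was Lox (105 ± 19.5), Loxl1 (73.1 ± 3.18), Loxl3 (16.6 ± 0.51), Loxl4 (8.98 to 10.8) and Loxl2 (4.05 ± 0.92 CPM per kilobase). Lox and Loxl1 overlapped in this order through STEM library 10, where Lox was at 70.5 CPM per kilobase and Loxl1 ran from 69.3 to 77.4 over the 6 libraries. Each STEM library had more Loxl4 than Loxl2, with Loxl4 at 1.69 to 3.85 times the level of Loxl2, against 0.83 to 0.94 times in horse serum libraries 1 to 5 and 1.72 times in library 6.

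The summed level of the family was 208 ± 12.2 CPM per kilobase with horse serum and 209 ± 19.9 CPM per kilobase with STEM (SD, n = 6), a difference smaller than the spread in either group. Lox made up 57.5 ± 2.76% of this sum with horse serum and 49.9 ± 5.18% with STEM, and the groups overlapped, between 53.4% and 59.5% against 41.1% and 55.0%. Loxl1 went from 27.7 ± 2.06% to 35.3 ± 3.88%, and its lowest share with STEM (31.6%) was above its highest with horse serum (30.5%). Loxl4 went from 2.91 ± 0.20% to 4.85 ± 0.70%, also without overlap. Loxl3 (8.91 ± 0.98% and 8.03 ± 0.92%) and Loxl2 (3.02 ± 0.64% and 1.92 ± 0.31%) overlapped, Loxl2 through library 6 alone (1.76%). Such shares do not depend on the scaling between libraries. Within a library, the level of Lox was 1.75 to 2.31 times that of Loxl1 with horse serum and 0.99 to 1.74 times with STEM, so that in STEM library 10 both were at about the same level per kilobase.

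**Figure D3:**
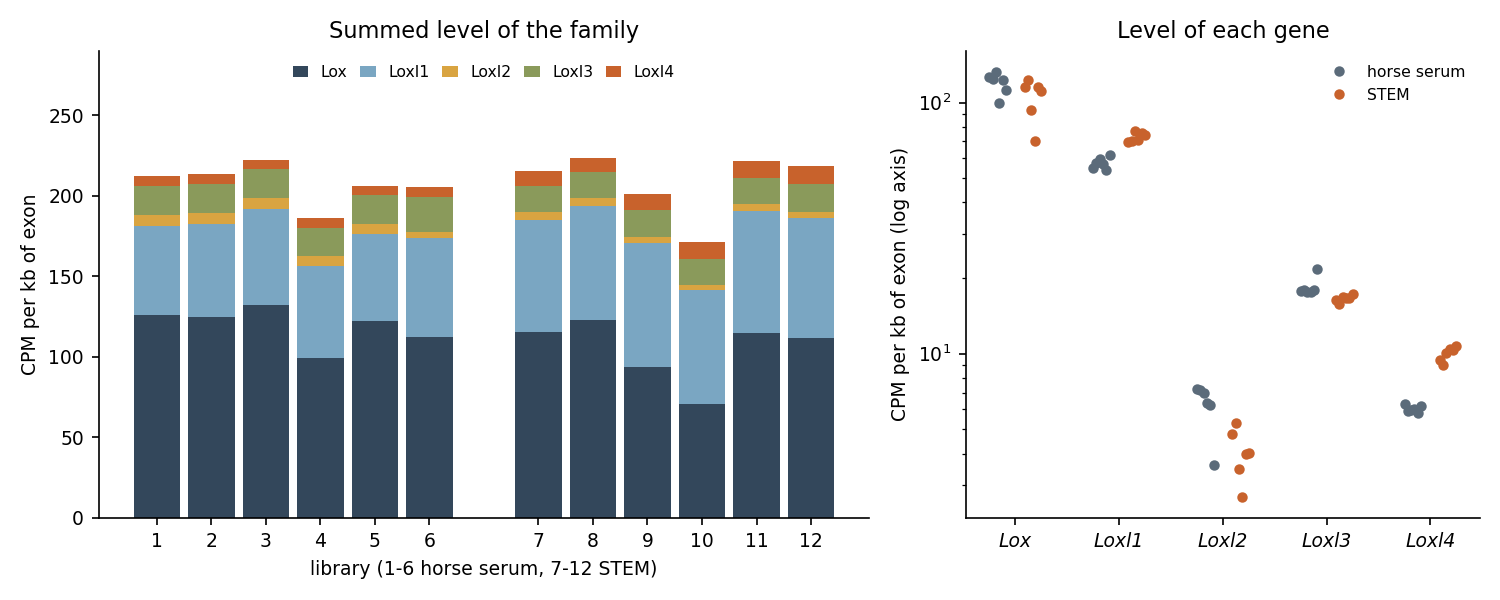
Left, CPM per kilobase of exon of the 5 lysyl oxidases stacked for each library (linear axis). Right, the same values per gene on a log axis, with 1 point per library, horse serum in grey and STEM in orange. The summed level is between 186 and 222 with horse serum and between 171 and 224 with STEM, while Loxl4 moves from below most Loxl2 values to above them.

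Lox and Loxl2 were lowest in the same STEM libraries. STEM library 10 had the lowest value of both (337 and 14.6 CPM) and STEM library 9 the next lowest (447 and 18.8 CPM), while STEM library 8 had the highest value of both (587 and 28.6 CPM). Over the 12 libraries, the deviations of log2 CPM from the group means of Lox and Loxl2 had a Pearson r of 0.70 (0.89 without library 6), given as a description. The pair with the largest r in size was Loxl2 and Loxl3 (-0.79), which went to -0.45 without library 6, while Loxl3 and Loxl4 went from 0.46 to 0.81, and Loxl1 and Loxl3 from 0.63 to 0.40. In horse serum library 6, Loxl2 was at 19.5 CPM while Lox was at 535 CPM, within its group. Loxl1 and Loxl4 did not follow this order, and Loxl4 was higher in STEM libraries 9 and 10 (42.4 and 43.8 CPM) than in libraries 7 and 8.

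**Figure D4:**
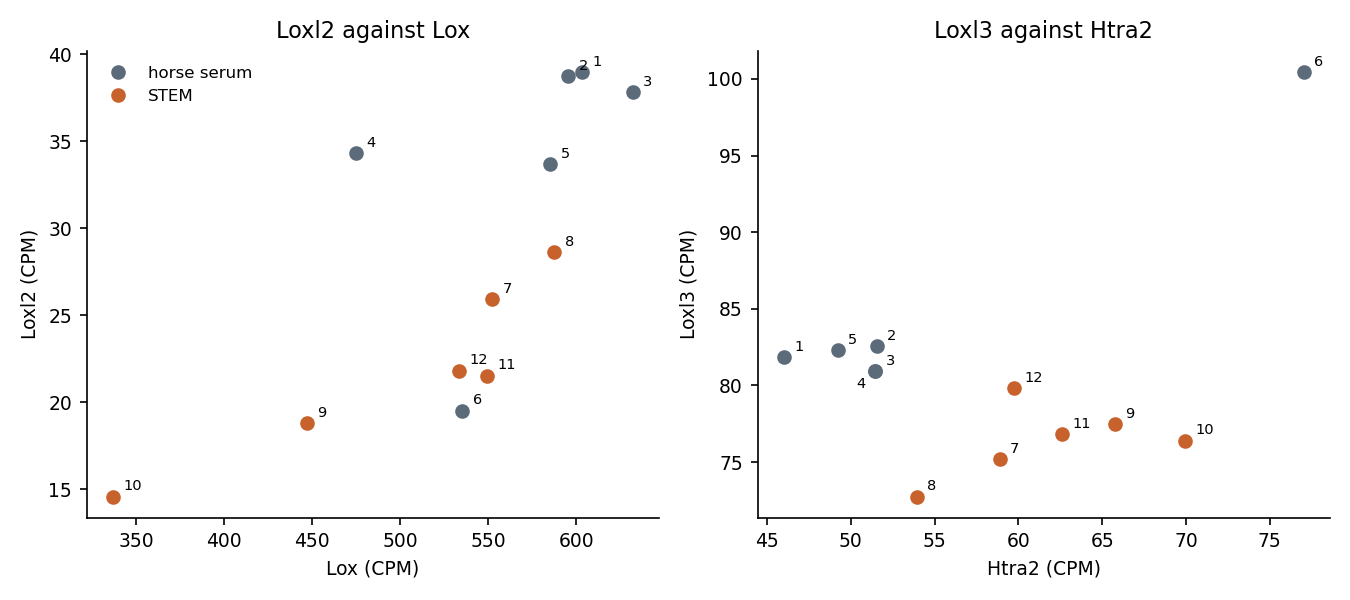
Left, Loxl2 against Lox, and right, Loxl3 against Htra2, the gene that overlaps Loxl3 on the opposite strand, in CPM with 1 numbered point per library (horse serum in grey, STEM in orange; axes do not start at 0). STEM libraries 9 and 10 are low for both Lox and Loxl2, and horse serum library 6 is the highest for both Loxl3 (100.4 CPM) and Htra2 (77.0 CPM).

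The genes most like each member were ranked by Pearson r of log2 CPM over the 12 libraries, among 12153 tested protein-coding genes, as a description. For Loxl4, these genes were Bhlhe41 (r = 0.99), a transcriptional repressor of the circadian clock, the zinc importer gene Slc39a10 (r = 0.99) and the stress-response gene Gadd45b (r = 0.98). Slc39a10 ran from 23.6 to 30.5 CPM in horse serum and from 73.4 to 87.1 CPM in STEM, a larger difference than that of Loxl4. For Loxl1 they were Man2b2, a lysosomal mannosidase gene, Lpin3 and Pofut2 (r = 0.98 each), the last an enzyme that adds fucose to thrombospondin repeats. For Loxl2 they were Jcad and Camk2g (r = 0.97 each) and Frmd6 (r = 0.96). For Loxl3 they were Cadm1, Pacsin2 and 4930503L19Rik (r = 0.96 each), and for Lox they were Jak1 (r = 0.92), the gene of a cytokine receptor kinase, Abtb2 (r = 0.91) and Mid2 (r = 0.88). The groups did not overlap for any of the 6 genes named for Loxl1 and Loxl4, so the likeness includes the difference between the media. The ranking was not repeated without library 6, which lay far from its group for Loxl2 and Loxl3.

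Gene lists around the family were read against the share of all tested genes that was called, 18.9% higher and 17.4% lower, or 26.3% and 24.5% without library 6. The proteins on which lysyl oxidases act were examined as fibrillar collagen chains and elastin. Of 10 tested genes, 5 were higher and none lower with STEM (5 called in edgeR, against 18.9% of all tested genes higher), with a median log2 fold change of 0.50 beside 0.01 for all genes. Without library 6, 7 were higher and none lower. Col5a3 went from 298 ± 23.8 CPM to 444 ± 39.1 CPM (SD, n = 6), Col5a1 from 1021 ± 107 CPM to 1675 ± 252 CPM and the low-level Col24a1 from 2.05 ± 0.56 CPM to 4.84 ± 1.02 CPM, with adjusted p of 1.72e-05, 7.58e-05 and 0.000177 in edgeR. Col5a2, another chain of collagen V, did not pass the test (log2 fold change -0.03, edgeR adjusted p = 0.727), at 2732 ± 110 CPM and 2680 ± 203 CPM. Chains of the most abundant fibrils were not even either. Col1a1 was higher (367 ± 78.5 CPM and 600.5 ± 172 CPM, adjusted p = 0.0161, or 0.0527 with no filter on low counts), whereas Col3a1 did not pass the test (log2 fold change 0.09, adjusted p = 0.278). Col1a2 passed it only without library 6 (0.23, adjusted p = 0.000522, against 0.15 and 0.124 with 12 libraries), where it was at 1947 CPM. Eln, the elastin gene, was too low to be tested, at 0.14 ± 0.066 CPM and 0.39 ± 0.13 CPM. Of 3 tested collagen IV chains, the substrate known for Loxl2, 2 were higher with STEM, Col4a2 (log2 fold change 0.32, adjusted p = 0.00106) and Col4a1 (0.25, adjusted p = 0.0022), while Loxl2 was lower. Of these chains, 3 were higher without library 6, against 26.3% of all tested genes.

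The proteases that release Lox and Loxl1 from their propeptides, the procollagen proteinases and their enhancers were examined next. Of 9 tested genes, 4 were higher and 1 lower, with a median of 0.32 on the log2 scale, and without library 6 the number called was 8, 6 higher and 2 lower, where 50.8% of all genes were called. Bmp1, the main protease of the Lox propeptide, went from 159 ± 14.4 CPM to 257 ± 5.35 CPM (SD, n = 6), or 0.69 on the log2 scale (SE 0.055, edgeR adjusted p = 4.2e-07). The procollagen N-proteinase genes Adamts2 (log2 fold change 0.56, adjusted p = 3.16e-06) and Adamts14 (0.32, adjusted p = 0.0012) were also higher. Fn1, the other gene called higher (0.63, edgeR adjusted p = 0.0350), was called in only 4 of the 12 fits that left out 1 library. With no filter on low counts its adjusted p was 0.102. Postn, the gene of periostin, a scaffold for Bmp1, was lower (862 ± 151 CPM and 655 ± 65.9 CPM, adjusted p = 0.0152, or 0.0633 with no filter on low counts). Pcolce, an enhancer of Bmp1, did not pass the test (log2 fold change 0.12, adjusted p = 0.279), but was called higher without library 6 (0.23, adjusted p = 0.000105), in which it was at 317 CPM against 216 to 226 CPM in the other horse serum libraries.

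Lysyl oxidases need copper, which Atp7a pumps into the secretory pathway. Of 11 tested genes of copper handling, 2 were higher and 2 lower with STEM (3 and 3 without library 6), with a median log2 fold change of 0.05, a share close to the 36.4% called among all tested genes. Atp7a was at 36.2 ± 1.97 CPM in horse serum and 35.0 ± 1.69 CPM in STEM (SD, n = 6, edgeR adjusted p = 0.506), and the copper importer gene Slc31a1 at 48.3 ± 2.21 CPM and 50.7 ± 1.99 CPM (adjusted p = 0.25). The called genes with the lowest adjusted p were Sco1, Slc31a2 and Steap2. Sco1, with a log2 fold change of 0.43 (adjusted p = 0.00068), delivers copper to mitochondrial cytochrome c oxidase, Slc31a2 (-0.39, adjusted p = 0.00244) encodes an intracellular copper transporter and Steap2 (-0.19, adjusted p = 0.00367) a metalloreductase. Of the other copper amine oxidases, Aoc2 and Aoc3 were tested and 0 were called, also 0 with DESeq2 or limma-voom, with adjusted p of 0.302 and 0.387 in edgeR.

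Other proteins build the elastic fibre and place lysyl oxidases on it. Of 15 tested genes for them, 7 were higher and 2 lower with STEM (against 18.9% and 17.4% of all tested genes), with a median log2 fold change of 0.26. Emilin1 went from 19.4 ± 1.83 CPM to 32.2 ± 2.24 CPM (SD, n = 6, edgeR adjusted p = 2.55e-06), and Efemp2, which brings Lox to elastin, from 52.5 ± 4.59 CPM to 70.1 ± 2.27 CPM (adjusted p = 4.75e-05). Fbln5, a partner of Loxl1, was higher with a log2 fold change of 0.56 (adjusted p = 0.00265) and lay at 71.4 CPM in library 6. Fbln1 was lower (16.1 ± 3.09 CPM and 9.80 ± 0.82 CPM, adjusted p = 0.000209).

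Lysine residues that are hydroxylated first give more stable crosslinks. The list for lysyl hydroxylation held the hydroxylases and proteins that work with them. Of its 7 tested genes, 5 were higher and none lower with STEM, against 18.9% of all tested genes higher. The median of the list was 0.20 on the log2 scale. Without library 6 the list had 5 higher and 2 lower, and with 1 library left out the number called lay between 4 and 7. Of the hydroxylase genes Plod1, Plod2 and Plod3, only Plod3 was called with 12 libraries (log2 fold change 0.15, edgeR adjusted p = 0.0249). Its call was lost in 6 of 12 fits that left out 1 library. Plod1 did not pass the test (-0.15, adjusted p = 0.291). The 5 included Fkbp10 (135 ± 18.6 CPM and 196 ± 8.19 CPM, edgeR adjusted p = 5.37e-05), a chaperone of the telopeptide hydroxylase, Ppib (log2 fold change 0.32, adjusted p = 0.000232) and Colgalt1 (0.26, adjusted p = 0.000415). Plod2, the gene of the telopeptide hydroxylase itself, was at 412 ± 88.0 CPM and 388 ± 28.1 CPM (adjusted p = 0.647), with 239 CPM in library 6. Without that library Plod2 was called lower in STEM (log2 fold change -0.20, SE 0.052, adjusted p = 0.0034), as was Plod1 (-0.24, adjusted p = 0.003). Of 3 tested genes of other crosslinking enzymes, 2 were higher, against 18.9% of all tested genes, and 3 without library 6, against 26.3%. Pxdn, the gene of the peroxidasin that crosslinks collagen IV, went from 221 ± 48.3 CPM to 421 ± 33.7 CPM (0.93 on the log2 scale, SE 0.12, adjusted p = 4.7e-05), with 311 CPM in library 6, and the transglutaminase gene Tgm2 from 147 ± 19.3 CPM to 191 ± 12.6 CPM (adjusted p = 0.00199).

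Of 7 tested genes of collagen-binding regulators of the fibril, 2 were higher with STEM, with a median of -0.13 on the log2 scale, and 4 were called without library 6, against 36.4% and 50.8% of all tested genes. Fmod, the gene of fibromodulin, which binds collagen and Lox, had a log2 fold change of 2.14 (SE 0.18, adjusted p = 1.01e-06), and Bgn, the gene of biglycan, one of 0.46 (adjusted p = 0.000798). Genes known to induce lysyl oxidases, with their mediators, were split, with 4 higher and 5 lower of 15 tested (against 18.9% and 17.4% of all tested genes) and a median log2 fold change of -0.01. Tgfb2 went from 40.0 ± 4.44 CPM to 72.5 ± 4.79 CPM (SD, n = 6, edgeR adjusted p = 5.59e-07), Tgfb3 from 163 ± 9.24 CPM to 206 ± 10.4 CPM (adjusted p = 8.93e-05), and Tgfb1 from 10.6 ± 1.99 CPM to 17.1 ± 3.97 CPM (adjusted p = 0.0033). Ccn2, a gene induced by TGF-beta, was lower (log2 fold change -0.82, adjusted p = 0.000912). Snai1, whose protein is a partner of Loxl2 and Loxl3, was higher (0.68, adjusted p = 0.000352) and the related Snai2 lower (-0.34, adjusted p = 0.00128). Hif1a was at 254 ± 13.7 CPM and 254 ± 14.2 CPM (adjusted p = 0.96).

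**Figure D5:**
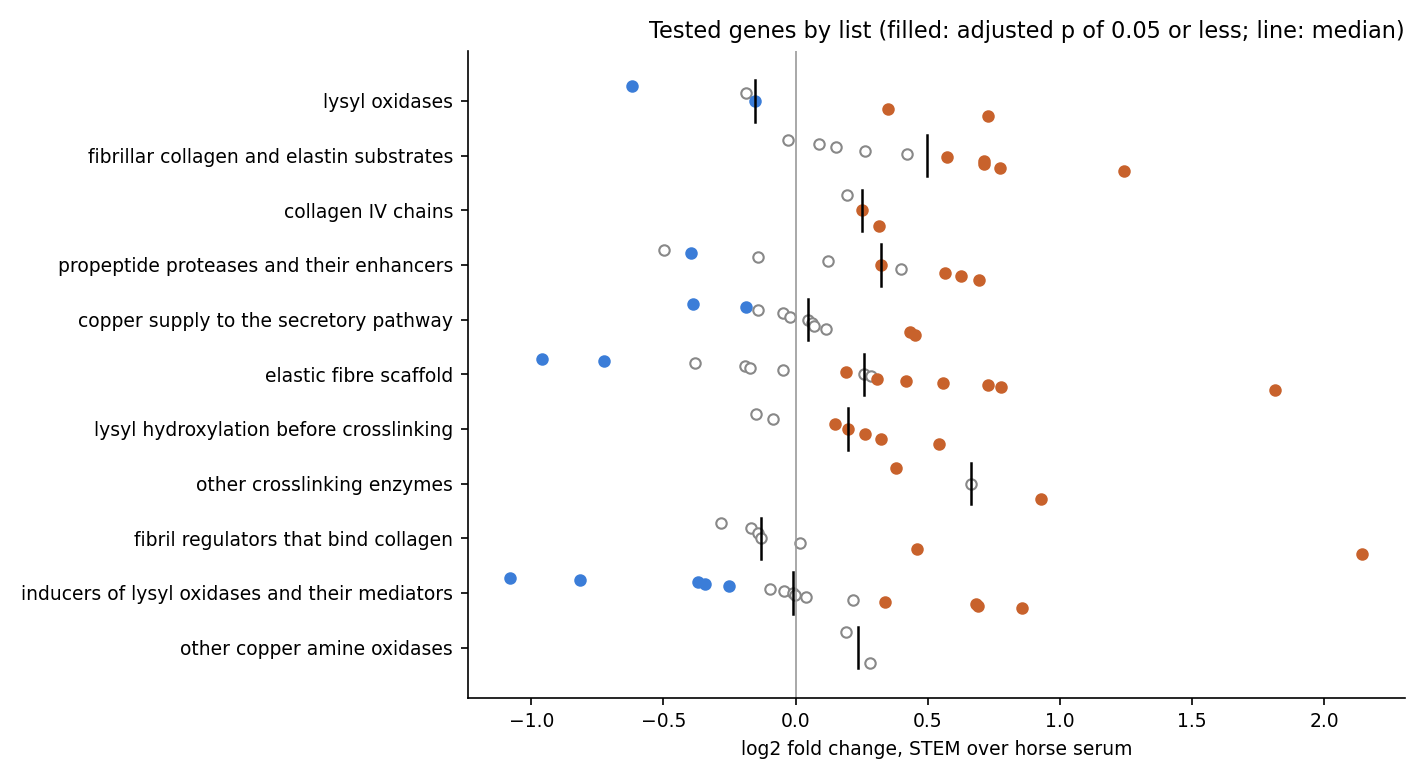
Log2 fold change of STEM over horse serum for the lysyl oxidases and for each tested gene of the 10 lists, with called genes filled (orange higher, blue lower), genes that were not called open, and the median of each list as a vertical line. The lysyl oxidases spread from -0.62 to 0.73. Called genes of the collagen substrates and of the lysyl hydroxylation list are all on the higher side with 12 libraries. Plod1 and Plod2, open here, are called lower without library 6.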

How the data were processed

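Total RNA was cleared of ribosomal RNA, made into stranded libraries and sequenced in paired reads, and the authors deposited raw read counts per Ensembl gene for 12 libraries, without normalization. The submitters' processing notes name STAR 2.7.3a, featureCounts 1.6.3, DESeq2 1.26.0 and build GRCm38, while the annotation release and strand setting are not given in the sources used here. Groups were taken from the sample titles. Symbols, positions and exon lengths came from GENCODE M21 (GRCm38), where 55227 of 55487 gene IDs were found. The longest identical stretch between transcripts of 2 lysyl oxidases was 32 bases (Lox and Loxl1).

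Differential expression was computed from the counts with edgeR 4.0.16 (filterByExpr, TMM, robust glmQLFit, glmQLFTest) in R 4.3.3, with Benjamini-Hochberg adjustment over 14175 genes and a threshold of 0.05. Log2 CPM used a prior count of 2. Alternatives were other scalings, other filters (none, or at least 10 counts in every library), DESeq2 1.42.0, limma-voom (limma 3.58.1), a prior count of 0.5, the longest transcript as gene length, and leaving out each library. The fits were tested on simulated data. The members and the 10 gene lists were chosen with earlier results of these data known. Named genes are the members, at most 3 called genes per list with the lowest adjusted p, a set of substrates and cofactors, and the 3 genes most like each member. Depth limits precision through the counts of a gene, which were between 226 and 13539 per library for the members. Htra2 and AC161119.1 were named because they overlap a member.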

Additional observations from a re-analysis of the deposited data

Results flagged for a closer look

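Dixon's test for a single outlying library was applied to each lysyl oxidase in each group (10 groups of 6 libraries), and chance flags about 1 in 20 such groups. It marked 2 groups, both in horse serum library 6. Loxl2 was at 19.5 CPM in that library, with the other 5 horse serum libraries between 33.7 and 39.0 CPM, and Loxl3 was at 100.4 CPM, with the others between 80.9 and 82.6 CPM. The same library had the lowest summed level of myotube markers (14802 CPM) and the highest of markers of unfused, dividing myoblasts (1504 CPM). Of the latter, Cdh15, Mki67 and Ccnb1 were at their highest of the horse serum group in it, while Pax7, Myf5 and Vcam1 were at their lowest. The part of these markers in the values of Loxl2 and Loxl3 was not tested.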

How the results depend on the processing

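No paired analysis was possible because the library numbers of the 2 groups, 1 to 6 and 7 to 12, are not shared. The log2 fold changes of Lox, Loxl1 and Loxl4 kept their direction and their side of the threshold under all 19 alternatives, and no lysyl oxidase reversed. With no filter on low counts Loxl2 (-0.63) and Loxl3 (-0.16) were no longer called, and with total counts only Loxl3 (-0.14) was not, and the cause was not tested. With each library left out in turn, Loxl3 lay between -0.17 and -0.10 and was called in 5 of 12 fits. The exact test of log2 CPM kept its result in all 75 cases. The count of called propeptide proteases and enhancers was 3 with no filter and between 4 and 8 with 1 library left out, and that of fibril regulators between 2 and 4 (most without horse serum library 6). The number of genes called over the whole table was 5155, and between 4459 and 7245 with 1 library left out. With the longest transcript as length, Loxl3 was at 20.7 CPM per kilobase with horse serum and 18.6 with STEM, Loxl4 at 6.79 and 11.3, and the share of Loxl4 with horse serum was 3.22%. The fewest counts in the family were those of Loxl4 in horse serum libraries 1 to 5 (324 to 404) and of Loxl2 in the others (226 to 636). The overlap of the groups by scaling and the correlations without library 6 were added after seeing the data.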

Other observations

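AC161119.1 (ENSMUSG00000118365), a non-coding gene on the strand opposite to Lox that shares 30 bases of exon with it, was expressed at 13.4 to 16.2 CPM in horse serum libraries 1 to 5, at 7.23 CPM in horse serum library 6 and at 6.67 to 12.5 CPM with STEM. On the log2 scale it differed by -0.58 (SE 0.20, edgeR adjusted p = 0.0357), while that of Lox was -0.19 and did not pass the test. Whether the counting used the strand is not given in the sources used here, so reads of the shared bases cannot be assigned to either gene with certainty.

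By their deviations from the group means, which leave out the difference between the media, the genes most like Lox among 12153 protein-coding genes were Fbln2, the gene of the matrix protein fibulin-2 (Pearson r = 0.92 over 12 libraries), Pdss2 (r = 0.91) and Jak1 (r = 0.90). Unlike Lox, Fbln2 was called higher in STEM (566 to 699 CPM, against 553 to 596 CPM in horse serum, edgeR adjusted p = 0.0110). For Loxl2 they were Frmd6 (r = 0.97), Jcad (r = 0.96) and the desaturase gene Scd1 (r = 0.96). For Loxl3 they were the splicing regulator gene Ptbp1 (r = 0.98), Eml4 (r = 0.98) and Slc38a2 (r = 0.96), 3 genes for which, as for Loxl3, the largest value was in the horse serum group. For Loxl4 they were Arfip2, Gas6 and Itpripl1 (r = 0.92, 0.89 and 0.88), and for Loxl1 Rab4b, Sik2 and Anks3 (r = 0.90, 0.90 and 0.88). These values are descriptions of the same 12 libraries, the highest of many, and carry no test. They were not recomputed without horse serum library 6, which lay far from its group for Loxl2 (19.5 CPM) and Loxl3 (100.4 CPM).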
